A study of Mus musculus with 6 samples.

Results

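The genes described here encode carriers of the SLC25 family, the proteins that move metabolites, nucleotides and ions across the inner membrane of mitochondria. They were chosen by name as the protein-coding genes of the RefSeq annotation of mm10 whose symbol begins with Slc25a, with Slc25a20 and Slc25a15 left out, which gave 45 of 21887 protein-coding genes. ATAC-seq, in which a transposase cuts and tags open DNA, was run on liver cells of males that ate a high-fat diet and were wild type in genotype. The protocol names the transposed cells by an abbreviation, LMs, that it does not spell out. The libraries numbered 6, of which 3 came from the inbred strain 129S1/SvImJ and 3 from the inbred strain C57BL/6J. Age, and whether the libraries of a strain came from separate animals, are not stated. Esrrg is entered as an antibody for all 6, although the transposition steps described use none. The deposited list combined the libraries into 120905 intervals given by position alone, so strains were not compared, depth is unknown, and an interval present in the list carries no strength. Because genes are not replicates and the members were picked by name, every comparison with other genes below is a description without a test.

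Each carrier of this family is built from repeats of a small membrane domain and exchanges a particular set of solutes, and the liver depends on several of them. Citrate leaves mitochondria through a carrier before it becomes fatty acids, and the urea cycle and gluconeogenesis need aspartate, malate and phosphate to cross the same membrane. Other members import the cofactors and nucleotides that mitochondrial enzymes use.

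An interval counted as lying at an end when it overlapped the 1 kb to either side of an end of the gene span, as inside when it overlapped only the rest of the span, and as in a flank when it lay farther out within 10 kb. By this count the 45 genes had 220 pairings of a gene with an interval, made of 217 different intervals, because 3 intervals were counted for 2 carrier genes each. Of the pairings 67 lay at an end, 93 inside and 60 in a flank. Marker genes of cell types were counted too, beside a share of 61.5% of all protein-coding genes with an interval at an end. All 10 listed hepatocyte markers had one. So did 3 of 6 macrophage, 2 of 4 endothelial, 1 of 4 lymphocyte and 2 of 4 skeletal muscle markers. These lists are short and were not tested, and skeletal muscle markers had the same share (50%) as macrophage and endothelial ones.

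RefSeq promoter sequences of the build GRCm38.p6, which run from 250 bases before a start site to 50 after it, were found for 34 of the 45 genes. For the other 11 no entry was used, and their start sites were not placed. The sequences below are printed 5′ to 3′ along the strand of the gene, with capitals for the bases that an interval of the list covered. They show the start of the citrate carrier gene, the start of the citrin gene, the 3 start sites of Slc25a25, of which 2 were covered, the start of Slc25a48, the start of Slc25a34 with its estrogen-related receptor motif, and the uncovered starts of Slc25a47 and Slc25a31.
Slc25a1 (citrate carrier), chr16:17928170-17928469, minus strand: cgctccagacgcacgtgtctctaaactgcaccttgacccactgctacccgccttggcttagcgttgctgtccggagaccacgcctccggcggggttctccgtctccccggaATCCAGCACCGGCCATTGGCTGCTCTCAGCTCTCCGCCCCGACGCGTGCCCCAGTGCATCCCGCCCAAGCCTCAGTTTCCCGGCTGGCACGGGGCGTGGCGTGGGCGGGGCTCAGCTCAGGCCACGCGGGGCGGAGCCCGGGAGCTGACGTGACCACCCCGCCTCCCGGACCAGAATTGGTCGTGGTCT
Slc25a13 (citrin), chr6:6217124-6217423, minus strand: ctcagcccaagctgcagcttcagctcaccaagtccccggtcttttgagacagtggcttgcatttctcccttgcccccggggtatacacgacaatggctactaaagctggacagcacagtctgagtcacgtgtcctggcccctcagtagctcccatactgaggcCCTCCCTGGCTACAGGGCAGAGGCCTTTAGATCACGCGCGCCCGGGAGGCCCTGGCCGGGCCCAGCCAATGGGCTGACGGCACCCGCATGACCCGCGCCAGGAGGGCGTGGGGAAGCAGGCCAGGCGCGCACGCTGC
Slc25a25 (outermost start), chr2:32451421-32451720, minus strand: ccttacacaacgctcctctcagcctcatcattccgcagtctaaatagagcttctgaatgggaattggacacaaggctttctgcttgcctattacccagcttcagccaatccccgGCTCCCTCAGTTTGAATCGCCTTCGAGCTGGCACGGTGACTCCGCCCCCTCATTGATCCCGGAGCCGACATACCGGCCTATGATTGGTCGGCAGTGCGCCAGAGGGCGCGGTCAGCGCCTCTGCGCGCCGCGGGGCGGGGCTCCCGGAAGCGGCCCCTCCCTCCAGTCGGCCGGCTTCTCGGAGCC
Slc25a25 (middle start), chr2:32431102-32431401, minus strand: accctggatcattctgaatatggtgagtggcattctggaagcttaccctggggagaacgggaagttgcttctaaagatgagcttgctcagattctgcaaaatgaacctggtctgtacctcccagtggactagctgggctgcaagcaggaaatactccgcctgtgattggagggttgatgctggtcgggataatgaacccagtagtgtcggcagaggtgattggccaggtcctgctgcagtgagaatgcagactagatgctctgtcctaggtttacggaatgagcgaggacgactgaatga
Slc25a25 (innermost start), chr2:32424017-32424316, minus strand: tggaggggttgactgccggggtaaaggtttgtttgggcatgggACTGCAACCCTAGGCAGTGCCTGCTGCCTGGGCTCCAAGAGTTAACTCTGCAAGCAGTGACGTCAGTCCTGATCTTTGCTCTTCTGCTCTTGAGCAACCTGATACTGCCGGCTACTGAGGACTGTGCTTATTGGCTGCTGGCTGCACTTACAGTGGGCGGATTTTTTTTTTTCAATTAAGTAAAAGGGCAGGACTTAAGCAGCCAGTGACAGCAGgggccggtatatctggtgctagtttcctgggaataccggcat
Slc25a48 (choline carrier), chr13:56438105-56438404, plus strand: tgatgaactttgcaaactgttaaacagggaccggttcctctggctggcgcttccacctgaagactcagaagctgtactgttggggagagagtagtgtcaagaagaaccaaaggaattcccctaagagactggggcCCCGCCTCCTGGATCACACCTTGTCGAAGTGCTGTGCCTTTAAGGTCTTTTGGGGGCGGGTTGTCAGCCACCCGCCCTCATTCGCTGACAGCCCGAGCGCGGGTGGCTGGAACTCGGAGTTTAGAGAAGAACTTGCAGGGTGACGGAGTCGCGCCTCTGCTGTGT
Slc25a34 (orphan carrier), chr4:141623785-141624084, minus strand: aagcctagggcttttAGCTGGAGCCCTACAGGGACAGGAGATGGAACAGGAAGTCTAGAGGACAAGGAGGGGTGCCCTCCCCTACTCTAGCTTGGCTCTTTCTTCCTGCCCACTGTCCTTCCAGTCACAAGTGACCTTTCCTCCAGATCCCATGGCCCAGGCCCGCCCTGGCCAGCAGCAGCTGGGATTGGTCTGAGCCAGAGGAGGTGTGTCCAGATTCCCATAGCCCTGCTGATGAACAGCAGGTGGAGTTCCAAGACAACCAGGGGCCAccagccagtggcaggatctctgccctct
Slc25a47 (liver-enriched carrier), chr12:108850879-108851178, plus strand: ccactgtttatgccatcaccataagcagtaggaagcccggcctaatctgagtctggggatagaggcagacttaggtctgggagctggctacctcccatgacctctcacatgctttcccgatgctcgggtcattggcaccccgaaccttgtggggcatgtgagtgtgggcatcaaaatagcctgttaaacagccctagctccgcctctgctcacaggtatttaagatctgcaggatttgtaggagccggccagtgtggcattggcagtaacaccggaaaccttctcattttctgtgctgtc
Slc25a31 (germ-cell ADP/ATP carrier), chr3:40708621-40708920, plus strand: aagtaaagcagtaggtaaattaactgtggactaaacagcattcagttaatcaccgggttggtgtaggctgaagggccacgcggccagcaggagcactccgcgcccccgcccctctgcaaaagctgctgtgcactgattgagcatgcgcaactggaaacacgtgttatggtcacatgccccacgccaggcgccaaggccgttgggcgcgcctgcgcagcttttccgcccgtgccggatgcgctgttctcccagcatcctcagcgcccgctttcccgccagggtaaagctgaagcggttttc

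In Slc25a1 the covered bases ran from position -139 to position 50, counted from 1 at the start site with no position 0, and in Slc25a13 from -87 to 50. In Slc25a25 they ran from -136 to 50 at the outermost start and from -207 to 8 at the innermost one, while no base was covered at the middle start. The Slc25a34 interval covered 257 of the 300 bases. No base of the Slc25a47 or the Slc25a31 window was covered.

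Carrier genes had an interval at an end more often than other genes. This was so for 40 of 45 (88.9%), whereas genes of like span, here at most 25% longer or 20% shorter than each carrier gene, averaged 65.9% and all protein-coding genes reached 61.5%. The other 5 were Slc25a2, Slc25a18, Slc25a31, Slc25a46 and Slc25a54. An interval inside the gene was found in 22 of 45 (48.9%), beside 50.5% of genes of like span and 48.1% of all genes. For flanks the count was 34 of 45 (75.6%), beside 64.5% and 61.4%. All 45 carrier genes had at least 1 interval in the span or its flanks, as did 87.6% of genes of like span and 83.9% of all protein-coding genes. The number with none was thus 0 of 45, beside 12.4% of genes of like span and 16.1% of all. With some other settings the share inside, and also that in flanks, moved to the other side of that of genes of like span. Of the 60 pairings in a flank, 20 also lay within 1 kb of an end of another protein-coding gene. An interval over 201 bp wide, 201 bp being the narrowest width in the list, lay at an end of 38 carrier genes (84.4%), of 56.1% of genes of like span and of 51.7% of all. Only Slc25a36 and Slc25a45 had intervals of exactly 201 bp at an end and none wider there (4.44%), against 9.81% and 9.75%.

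**Figure D1:**
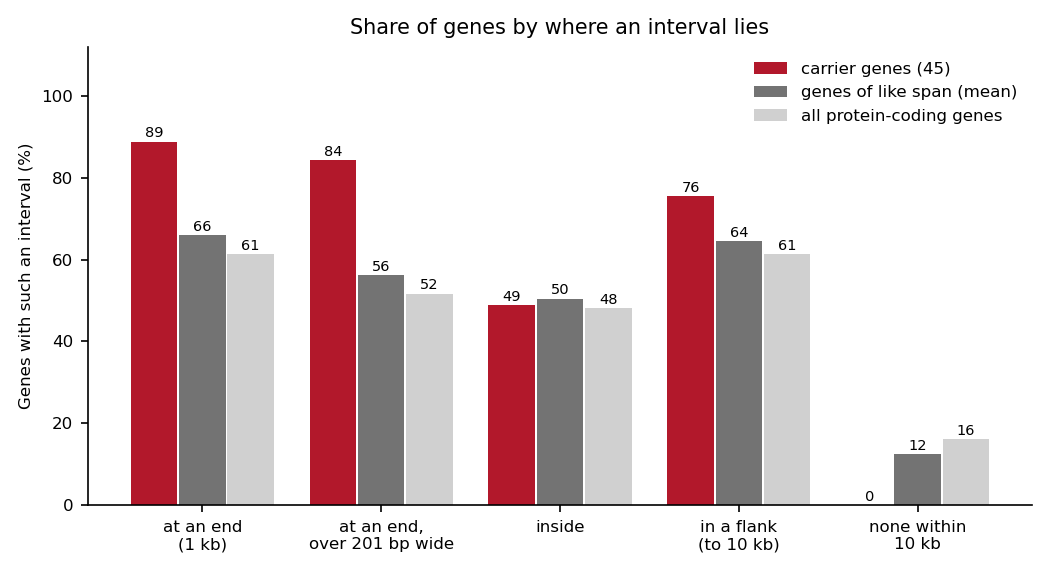
Share of genes, in percent, with an interval at an end, with an interval over 201 bp wide at an end, inside, in a flank, or with none, for the 45 carrier genes, the average of genes of like span, and all 21887 protein-coding genes. The bars at the ends show 88.9% for carrier genes beside 65.9% and 61.5%, and the bars for the inside of genes lie close together.

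Several intervals at the ends of a single carrier gene were also frequent. At least 2 lay at the ends of 20 carrier genes (44.4%), against 19.7% of all protein-coding genes, and at least 3 at the ends of 7 (15.6%), against 3.26%. The 7 were Slc25a5, Slc25a10, Slc25a25, Slc25a34, Slc25a36, Slc25a44 and Slc25a47. These shares were not matched for span. Among the 7, Slc25a25, Slc25a36, Slc25a44 and Slc25a47 had intervals at an end within 500 bp of each other, counted separately. Joining intervals within 500 bp took the pairings of carrier genes from 220 to 198, and the whole list from 120905 to 114794. Genes with several intervals at their ends were not counted after joining. The mean was 1.49 intervals at the ends per carrier gene, 0.909 in genes of like span and 0.847 in all protein-coding genes. Of the 67 pairings at an end, 14 also lay in the 1 kb around an end of another protein-coding gene. In 5 genes every interval at an end was of this kind, namely Slc25a11 with Rnf167, Slc25a22 with Cend1 and Pidd1, Slc25a27 with Cyp39a1, Slc25a40 with Dbf4, and Slc25a41 with Khsrp. Which gene such an interval belongs to was not tested. Without shared intervals 35 of 45 carrier genes (77.8%) kept an interval at an end, against 51.8% of genes of like span.

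The number of intervals per carrier gene, flanks included, ran from 1 to 27, with a median of 4 and quartiles of 3 and 6. All protein-coding genes had a median of 3 and quartiles of 1 and 5. The median span was 20.7 kb in carrier genes and 17.2 kb in all protein-coding genes. Set against the mean of genes of like span, 28 of 45 carrier genes (62.2%) lay above it, as did 46.2% of all protein-coding genes against their own mean. Per 100 kb of span and flanks the median was 8.40 intervals in carrier genes, 7.13 in genes of like span and 6.51 in all.

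**Figure D2:**
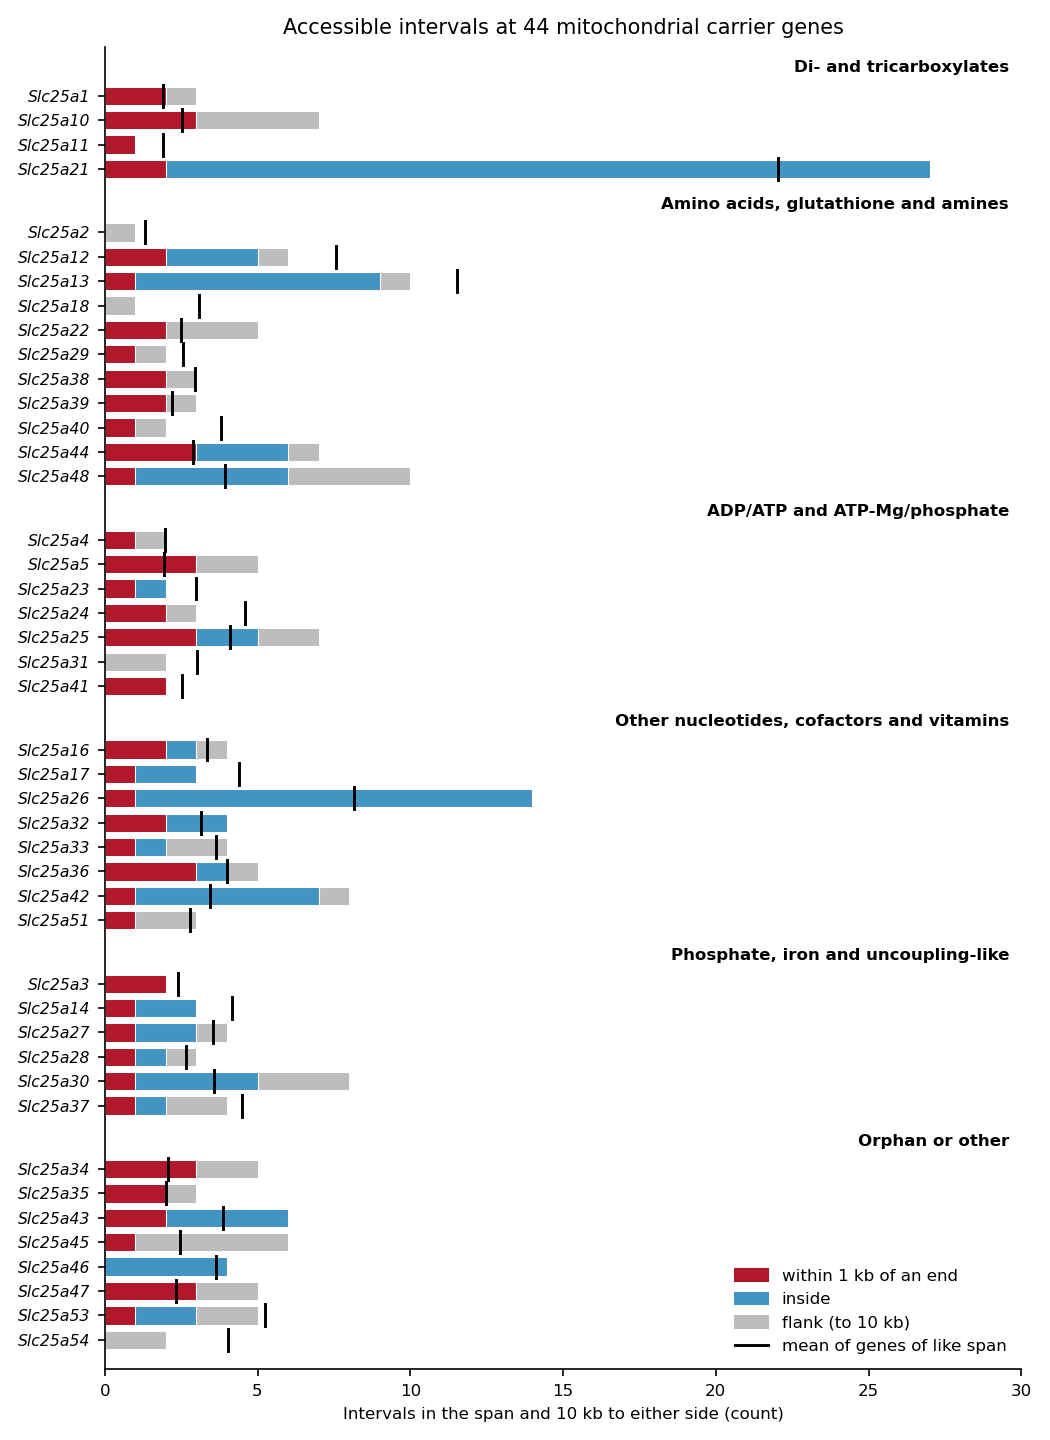
Number of intervals for each of 44 carrier genes, split into those within 1 kb of an end, inside and in a flank, with genes grouped by what they carry and a black tick at the mean of genes of like span. Slc25a21 reached 27 intervals and Slc25a26 14, and the 5 genes without a red segment are those with none at an end.

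All 4 carriers of di- and tricarboxylates had an interval at an end, where genes of like span averaged 59.6%. Slc25a1, the citrate carrier that supplies the cytosol with carbon for fatty acids, spans 3.01 kb on chromosome 16 (17925211 to 17928219) and had 3 intervals. A 240 bp interval at 17928119 to 17928358 was centred 19 bp before the start site, a 222 bp interval was centred 636 bp before it, and the third was a 222 bp interval past the other end of the gene. Slc25a10, the dicarboxylate carrier that exchanges malate and succinate for phosphate, spans 9.32 kb on chromosome 11 (120491837 to 120501161) and had 7. Of 2139 genes of like span 97.7% had fewer, and the mean was 2.52. Its 205 bp interval at 120491700 to 120491904 was centred 35 bp before the start site, and 2 intervals of 201 bp lay around the far end. The 228 bp interval centred 2200 bp before the start lay at an end of Mrpl12. A 201 bp interval centred 7236 bp before it lay at ends of Hgs and Mrpl12. Slc25a11, the oxoglutarate carrier of the malate-aspartate shuttle, had a single interval, of 211 bp and centred 36 bp after the start site.

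Slc25a21 had the most intervals of the family. It encodes the oxodicarboxylate carrier of lysine breakdown and spans 485 kb on chromosome 12 (56712634 to 57197472). Of its 27 intervals 25 lay inside, 2 at the end that holds the outermost start site and none in a flank. Genes of like span, of which there were 222, had a mean of 22.0, so the count was above the mean by 4.96, and 29.7% of those genes had more. Its intervals lay 18.7 kb apart on average over span and flanks, and 12 of the 27 were 201 bp wide. The 233 bp interval at 57197220 to 57197452 was centred 136 bp after the outermost start and covered 30 of the 300 bases of that promoter window. The second start site, 57160643, had no interval over its window.

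Among carriers of amino acids, glutathione and amines, 9 of 11 had an interval at an end, where genes of like span averaged 64.8%. Slc25a13, which encodes citrin, the aspartate/glutamate carrier of liver that feeds the urea cycle, spans 176 kb on chromosome 6 (6041218 to 6217304) and had 10 intervals, 8 of them inside. Genes of like span had a mean of 11.5. The interval at its start, at 6216977 to 6217260, was 284 bp wide and was centred 55 bp after the start site. Slc25a12, the aspartate/glutamate carrier of muscle and brain, had 6 intervals over 93.5 kb on chromosome 2 (71274270 to 71367781), where genes of like span averaged 7.55. Each of its ends carried an interval, of 210 bp at the start (71367544 to 71367753) and of 201 bp at the far end (71274408 to 71274608). For the pair of aspartate/glutamate carrier genes, then, an interval reached the promoter window in both. Only that of Slc25a13 covered the start site, since that of Slc25a12 covered 48 of the 300 bases, from position 3 to 50. The totals fell below the mean of genes of like span in both, although that of Slc25a13 equalled their median of 10.

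Slc25a48, a carrier of choline, stood farthest above the mean of genes of like span. It spans 34.4 kb on chromosome 13 (56437960 to 56472367) and had 10 intervals, where 2395 genes of like span averaged 3.93 and 98.0% of them had fewer. The 226 bp interval at 56438240 to 56438465 was centred 3 bp before the start site, 5 intervals lay inside and 4 in the flanks, and only 3 of the 10 were 201 bp wide. Slc25a44, which carries branched-chain amino acids, had 7 over 14.6 kb, more than 95.9% of genes of like span, although 2 of its 3 intervals at an end also lay at an end of Pmf1. The glutamate carrier gene Slc25a22 had 5, of which 4 also lay at an end of another gene. Among them a 293 bp interval was centred 249 bp after the outermost start without reaching its promoter window.

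The glutathione carriers Slc25a39 and Slc25a40 had 3 and 2 intervals, and those at the ends were wider in Slc25a39. Slc25a39 on chromosome 11 (102402969 to 102408675) held 2 wide intervals near its start. An interval of 382 bp at 102407475 to 102407856 covered 293 of the 300 bases of the promoter window, and another of 274 bp lay at the outer end of the span. Slc25a40 on chromosome 5 (8422730 to 8454839) had a 202 bp interval at 8422668 to 8422869, centred 70 bp before its start and shared with Dbf4, and a 201 bp interval in a flank. That total of 2 was below the mean of 3.81 of genes of like span, of which 67.0% had more. Slc25a38, a glycine carrier needed for haem synthesis, had a 210 bp interval centred 5 bp before the start. Slc25a29, a carrier of basic amino acids, had a 203 bp interval centred 49 bp after it.

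The group without an interval at an end included both Slc25a18, a glutamate carrier, and Slc25a2, which in human is an ornithine carrier. Slc25a18 spans 20.7 kb on chromosome 6 (120773504 to 120794169). Its only interval was 201 bp wide, was centred 1525 bp outside the far end and lay at an end of Atp6v1e1. Of 2765 genes of like span 74.9% had more, and the count was below their mean by the widest margin of the 45 genes (-2.10). Slc25a2, the shortest of the 45 at 1.35 kb, on chromosome 18 (37637378 to 37638723), had 1 interval of 211 bp, centred 5480 bp away and at an end of Taf7.

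Of the carriers of ADP, ATP and ATP-Mg, 6 of 7 had an interval at an end, where genes of like span averaged 64.3%. Slc25a4 encodes the exchanger of ADP for ATP that is abundant in heart and muscle, and Slc25a5 a widely expressed one. Slc25a4 had a 254 bp interval centred 44 bp after its start and 1 of 249 bp in a flank. Slc25a5, on the X chromosome, had 5, with a 210 bp interval centred 39 bp before the start, and 93.8% of genes of like span had fewer. Slc25a31, the ADP/ATP carrier of male germ cells, had none at an end. Its nearest interval, of 213 bp at 40704900 to 40705112 on chromosome 3, was centred 3865 bp before the start and lay at an end of Intu. Among the 3 genes, Slc25a4 and Slc25a5 thus had a covered promoter window and the germ-cell gene had none.

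The calcium-regulated ATP-Mg/phosphate carriers were Slc25a23, Slc25a24 and Slc25a25, and Slc25a41 is a shorter relative. Slc25a25 spans 37.0 kb on chromosome 2 (32414487 to 32451470) and had 7 intervals against a mean of 4.08 in genes of like span. Of its 3 RefSeq start sites the outermost had a 212 bp interval centred 30 bp before it, shared with Naif1. The innermost start, 32424066, had a 215 bp interval centred 100 bp before it, which counted as inside the gene. A 325 bp interval at 32437098 to 32437422 lay between the outermost and the middle start and was the widest of the gene. Slc25a24 on chromosome 3 (109123149 to 109168409) had a 252 bp interval at 109123215 to 109123466 and a 201 bp interval at 109123753 to 109123953 after its start, and its total of 3 was below the mean of 4.59. Slc25a23 had a 210 bp interval centred 618 bp before the nearest start site, which reached neither promoter window. Both intervals at an end of Slc25a41 were also at an end of Khsrp.

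All 9 carriers of other nucleotides, cofactors and vitamins had an interval at an end, where genes of like span averaged 70.4%. An interval inside was found in 7 of the 9, beside 48.1% of all protein-coding genes. That share depends on span, and it was not matched for span in this group. Slc25a26, which imports the methyl donor S-adenosylmethionine, spans 104 kb on chromosome 6 (94500295 to 94604659). It had 14 intervals, 13 of them inside, against a mean of 8.15 in 1256 genes of like span. A run of 5 lay within 5 kb, at 94549052 to 94553409, and no other carrier gene had that many in such a distance. At its lower-coordinate end it had a 216 bp interval centred 47 bp outside the span. Slc25a42, a carrier of coenzyme A, spans 27.9 kb on chromosome 8 (70184340 to 70212281) and had 8 against a mean of 3.44. Inside the gene lay 6, and the interval nearest the start was 212 bp wide and centred 254 bp before it. Slc25a51, the mitochondrial NAD carrier, lies on chromosome 4 (45395923 to 45408917) and had 3 against 2.77. These were a 215 bp interval centred 45 bp inside its upper-coordinate end and 2 of 201 bp in the flank.

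The remaining cofactor and nucleotide carriers had 3 to 5 intervals each. Slc25a33 and Slc25a36 carry pyrimidine nucleotides. Slc25a33 had a 222 bp interval centred 90 bp before its start. Slc25a36 had 3 intervals of 201 bp around its start, 2 of which reached the promoter window. Slc25a16, linked to coenzyme A, had a 210 bp interval centred 81 bp after its start. Slc25a17, a peroxisomal member, had a 219 bp interval centred 76 bp before its start. The folate carrier Slc25a32 had a 219 bp interval at an end shared with Dcaf13.

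All 6 carriers of phosphate and iron and relatives of the uncoupling proteins had an interval at an end, where genes of like span averaged 68.5%. Slc25a3, which brings in the phosphate used for ATP synthesis, had a 224 bp interval centred 50 bp before its start and a 277 bp interval centred 560 bp after it, and no other. Slc25a28 and Slc25a37 encode mitoferrins, which import iron. Slc25a28 had a 211 bp interval centred 81 bp before its start. Slc25a37 on chromosome 14 (69241848 to 69285544) had one of the widest intervals at an end, 355 bp at 69241289 to 69241643, centred 382 bp outside its lower-coordinate end. None of its 4 intervals was 201 bp wide. Slc25a30, a relative of the uncoupling proteins on chromosome 14 (75757534 to 75787037), had 8 over 29.5 kb against a mean of 3.56, all wider than 201 bp. The interval at its start, at 75786957 to 75787178, was 222 bp wide and centred 30 bp before the start site, and a 305 bp interval lay inside. Slc25a14 and Slc25a27 had 3 and 4 intervals, each with 1 at an end.

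Of the 8 members with another or no established substrate, 6 had an interval at an end, where genes of like span averaged 65.2%. Slc25a47, a carrier whose expression is enriched in liver, spans 6.98 kb on chromosome 12 (108849833 to 108856815) and had 5 against a mean of 2.33. Its 253 bp interval at 108849589 to 108849841 was centred 118 bp outside the lower-coordinate end, which is 1414 bp before the RefSeq start site. A pair of 201 bp intervals lay just past the far end. A 202 bp interval at 108842087 to 108842288 fell within 10 kb of both Slc25a47 and Slc25a29. Slc25a35 had the widest interval at an end of any carrier gene, 394 bp at 68967790 to 68968183 on chromosome 11, centred 110 bp outside the lower-coordinate end. Slc25a34 had 5 intervals against a mean of 2.07, with one of 257 bp centred 107 bp before its start. Of the 5, 2 also lay at an end of Tmem82 or Plekhm2. Slc25a45 had 6 over 7.97 kb, of which 5 were 201 bp wide and 5 lay in the flanks. Of the flank intervals 2 also lay at an end of Frmd8 or Tigd3.

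Slc25a46, an outer membrane protein tied to mitochondrial division, spans 30.4 kb on chromosome 18 (31580164 to 31610532) and had 4 intervals, all inside. The outermost was 239 bp wide and centred 1122 bp inside the upper-coordinate end, just beyond the 1 kb window. Slc25a54 on chromosome 3 (109080499 to 109116582) had 2, both in a flank, and both were the intervals at the start of its neighbour Slc25a24. Of genes of like span 69.0% had more. On the X chromosome all 4 carrier genes, Slc25a5, Slc25a14, Slc25a43 and Slc25a53, had an interval at an end, against 44.3% of the 966 X-linked protein-coding genes. Slc25a43 had a 281 bp interval centred 94 bp after its start and 4 inside. Slc25a53 had a 270 bp interval centred 33 bp after its outermost start.

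**Figure D3:**
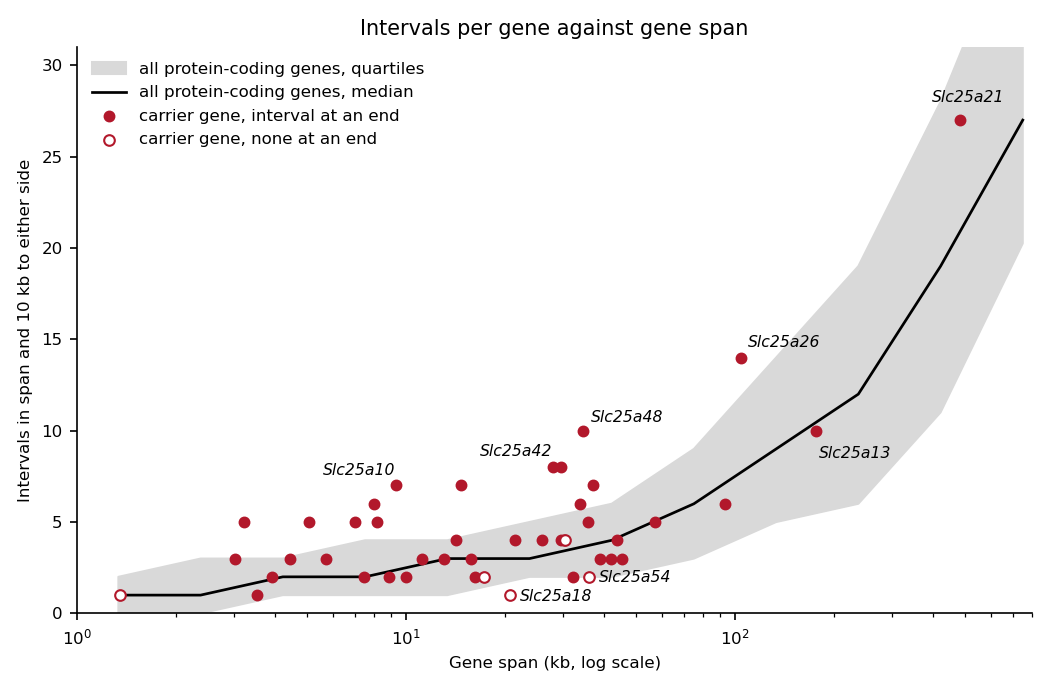
Number of intervals per gene against gene span in kb on a log axis, for the 45 carrier genes (filled where an interval lies at an end, open where none does) and for all protein-coding genes (line for the median and band for the quartiles by span). Slc25a48, Slc25a42 and Slc25a10 lie above the band, with 10, 8 and 7 intervals, and Slc25a18 lies below it with 1.

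Where the start was known from the promoter table, intervals gathered at the 5′ end. Of the 34 carrier genes with an entry, 31 (91.2%) had an interval within 1 kb of the 5′ end of the span, against 57.8% of the 17492 protein-coding genes with an entry, and 62.7% of those of like span. At the 3′ end the count was 9 of 34 (26.5%), against 13.2% of all and 13.3% of those of like span. The same 9 of 34 (26.5%) had one at both ends, against 9.70% of all and 9.54% of those of like span. The 9 were Slc25a5, Slc25a10, Slc25a12, Slc25a16, Slc25a22, Slc25a25, Slc25a34, Slc25a43 and Slc25a47. In Slc25a16, Slc25a22 and Slc25a34 the only interval at the 3′ end also lay at an end of Dna2, Cend1 and Tmem82, respectively. An interval overlapped a promoter window in 26 of 34 genes (76.5%), against 52.1% of all and 57.3% of those of like span. Besides the 3 genes with nothing at an end, the exceptions were Slc25a22, Slc25a23, Slc25a24, Slc25a45 and Slc25a47, whose nearest intervals missed the window on either side. An interval covered the outermost start site itself in 23 of 34 genes (67.6%), against 35.9% of all and 39.4% of those of like span.

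**Figure D4:**
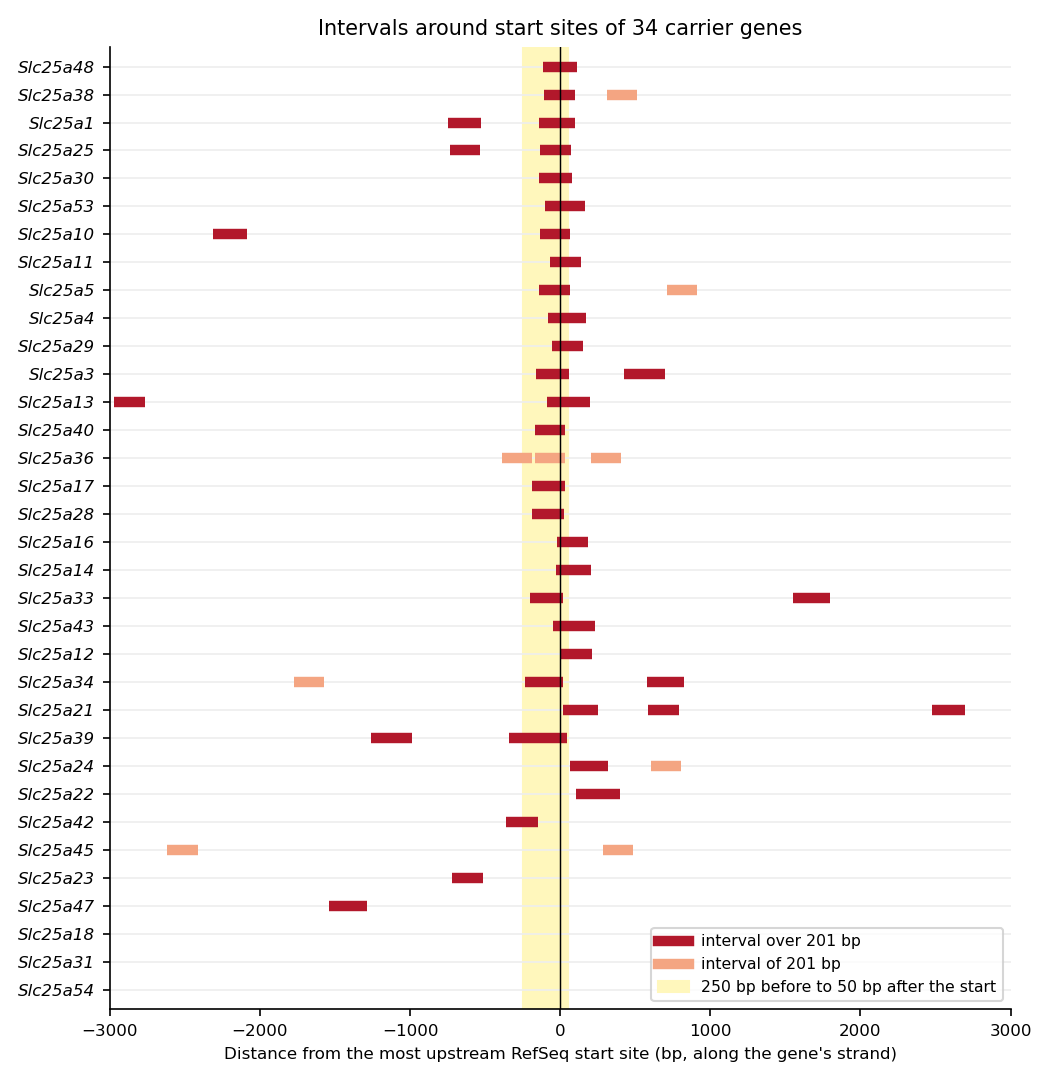
Positions of intervals, drawn to scale, within 3 kb of the most upstream RefSeq start site of 34 carrier genes, in bp along the strand of the gene, with the promoter window shaded. Intervals over 201 bp wide lie across the start of most genes, and Slc25a18, Slc25a31 and Slc25a54 have none within 3 kb.

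The intervals over promoter windows were wide for this list. Of 29 covered windows among the 43 of carrier genes, 28 were overlapped by an interval over 201 bp wide, and the exception was Slc25a36. Intervals of exactly 201 bp, the narrowest width, were the widest over 3.45% of covered carrier windows, against 15.6% of covered windows of all protein-coding genes, and the median widths were 222 and 213 bp. The 29 windows belong to 26 genes and are not separate intervals, since a single 235 bp interval was counted in the 3 overlapping windows of Slc25a14. By position, and with intervals over start sites included, 28.4% of the pairings of carrier genes at an end were 201 bp wide (26.1% over all protein-coding genes), inside 36.6% (44.2%) and in flanks 48.3% (37.4%). Over all positions the share was 37.3%, against 36.4% in genes of like span. The nearest interval to a covered start was centred before it in 19 of 29 windows (65.5%), against 70.4% in all protein-coding genes.

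Covered and uncovered promoter windows differed in base composition. Among the 29 covered carrier windows the median content of G and C was 60.7% and the median number of CG pairs 18, and among the 14 uncovered ones 54.8% and 9. The same medians were 62.0% and 22 in covered windows of all protein-coding genes, and 50.3% and 5 in uncovered ones. The direction in carrier genes was thus that of all genes. Among covered carrier windows the number of CG pairs ran from 1 in Slc25a34 to 47 in Slc25a40. Slc25a31, uncovered, had 22.

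Short motifs were searched on both strands of the promoter windows. GGGCGG, the GC box, was in 35 of 43 carrier windows (81.4%) and 46.2% of all protein-coding windows, and among covered windows in 26 of 29 (89.7%) and 68.5%. CCAAT was in 22 of 43 (51.2%) against 38.2%, and the E-box CACGTG, a motif that the clock activators bind, in 7 of 43 (16.3%) against 7.84%. The E-box windows belonged to Slc25a1, Slc25a13, Slc25a14 with 2 overlapping windows, Slc25a31, Slc25a33 and Slc25a36. Of these matches only that of Slc25a33, at position -8, lay within covered bases. CATGCGC, part of the NRF1 motif, was in 2 of 43 (4.65%) against 4.80%, and AAGATGG, part of the YY1 motif, in 2 of 43 (4.65%) against 6.24%. AAGGTCA, which estrogen-related receptors bind and which contains the AGGTCA core shared with other nuclear receptors, was in 1 of 43 (2.33%) against 4.08%. That window was the one of Slc25a34 printed above, where the match is on the reverse strand at position -119 and within the covered bases. Several windows overlap within a gene, and these matches are letters and not shown to be bound.

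Other genes of mitochondrial transport were counted in the same way. An interval lay at an end of all 19 listed genes of other carriers and channels, whose median was 6 intervals in all. Among them Mpc1 and Mpc2, the subunits of the pyruvate carrier, had 6 and 4, Vdac1, an outer membrane channel, had 11, and Mcu, the pore of the calcium uniporter, had 24 over 170 kb. Of 5 genes of the same protein family with other symbols, 3 had one. Ucp2, Mtch1 and Mtch2 had 2, 1 and 3 at their ends, and Ucp1, the uncoupling protein of brown fat, and Ucp3, that of muscle, had none there. Ucp1 had a single interval in a flank, and Ucp3 had 5 in all. These lists were not tested against the 45 genes.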

How the data were processed

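Accessible chromatin was measured by ATAC-seq in 6 liver libraries, and the submitters' processing notes name fastp, Bowtie2, HOMER and the build mm10, with versions and order not given in the sources used here. How reads were shifted and filtered, how peaks were thresholded and how libraries were merged are not stated, and each of these steps bears on which weak sites the list holds. The deposited file holds 3 columns, chromosome, start and end, with no count, score or signal, and its other per-sample columns number 0. Depth per library is therefore unknown, and no interval or floor for depth was given. Starts were converted to 1-based positions.

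Gene spans came from a RefSeq table of GRCm38.p6, which is mm10, and strand and start sites from RefSeq promoter sequences of that build. An overlap of at least 1 bp counted, with priority to ends, then inside, then flank. Shares for genes of like span were averaged over the other genes at most 25% longer or 20% shorter than each carrier gene, then over carrier genes. Counting was tested on simulated data with planted intervals. Python 3.11.15 with pandas 2.3.3 and NumPy 2.4.6 was used. The members, lists and named genes were chosen with earlier results of these data known. Positions were given for the 5 genes with most intervals, those with none at an end, the 5 farthest above and 5 farthest below genes of like span, the 3 with the widest intervals at an end, and 7 genes for their role in liver. Other genes were named within their group after their values were seen. The values of 1 member are not reported here by name, and it stays in the counts. No strain comparison and no search of protein sequences was made. The alternatives tried were other end windows and flanks, interval centres, only wider intervals, joined intervals, other matching rules and restricted gene sets.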

Additional observations from a re-analysis of the deposited data

How the results depend on the processing

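The share of carrier genes with an interval at an end stayed above that of genes of like span under all 13 alternatives, between 77.8% and 95.6%. Not all of these could move it. A change of flank leaves the ends as they are, and joining intervals cannot take one away from an end. In those settings the shares stayed at 88.9% against 65.9%. One alternative, only genes with a promoter entry, was chosen after the data were seen. The share inside changed side: it was 62.2% against 54.6% with end windows of 500 bp, 42.2% against 37.2% with 5 kb, 40.0% against 39.7% without intervals of 201 bp, and 48.9% against 48.1% with no length matching. The share in flanks became 42.2% against 46.3% with end windows of 5 kb and 46.7% against 50.5% without intervals of 201 bp, and was 100% against 93.4% with flanks of 50 kb. Genes with no interval made up 8.89% against 20.8% without flanks, 11.1% against 18.0% without intervals shared with another gene's end, and 2.22% against 19.7% without intervals of 201 bp. The median per gene was 2 without flanks, 10 with flanks of 50 kb and 2 without intervals of 201 bp, beside 2, 8 and 2 in genes of like span. The share of 201 bp intervals lay below that of the comparison genes in 5 settings. Against genes of like span it was 33.1% against 36.5% without flanks and 35.6% against 37.0% with flanks of 50 kb. With joined intervals it was 29.8% against 31.9%, and without shared intervals 36.6% against 38.7%. With no matching the share stayed at 37.3%, and the other protein-coding genes had 38.9%. The causes were not tested. Flanks could not be compared without a flank, nor the share of 201 bp intervals without them. No paired analysis was possible because the list combines the libraries and no column names a strain or replicate, so no library could be left out either.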
